A study of Mus musculus with 4 samples.

Results

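GzmB+ Teff was a cluster of CD8+ T cells that carried the transcripts of an interferon response in the bone marrow (BM) of myeloma-bearing mice after stem cell transplantation (SCT). Its members were all cells with this name in the authors' cell table, 732 of 11754 cells, or 6.23% (exact Clopper-Pearson 95% interval 5.80% to 6.68%). Libraries 1 to 4 held 191, 163, 108 and 270 of these cells, which were 4.51%, 8.14%, 6.26% and 7.13% of each library. The cluster was therefore present in every library, and its share was lowest in library 1 and highest in library 2.

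The study asked how TIGIT blockade and lenalidomide, alone or together, change CD8+ T cells after SCT. Its 4 groups were labelled "Isotype control + vehicle", "TIGIT inhibition + vehicle", "Isotype control + Lenalidomide" and "TIGIT inhibition + lenalidomide", and each was 1 library of sorted CD8+ T cells from 5 pooled mice. All recipients were on a C57BL/6 background, either WT or CRBN transgenic, received BM and T cells from donors that the labels call genetically matched (the sources differ on the number of T cells), and had been given Vk12653 myeloma cells 2 weeks before SCT. The CRBN transgene lets lenalidomide act through mouse cereblon. The mice were female and 8 to 12 weeks old. Antibody (Fc-live anti-TIGIT or isotype) started on the day of SCT, lenalidomide or vehicle started on day 14, and BM was taken on day 28. The libraries carry only the numbers 1 to 4 in the cell table, and no source read here ties a number to a treatment, so no value below is assigned to a treatment. With 1 library of pooled mice per group there were no replicates, cells were not treated as replicates, and no test was made. The clusters were drawn by the authors on these expression values, so differences between clusters in expression are descriptions, and the closest-profile and same-clone comparisons were added after seeing the data.

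Type I interferons bind the receptor IFNAR1/IFNAR2 and act through the kinases JAK1 and TYK2 and transcription factors such as STAT2 and IRF9. These bind an interferon-stimulated response element in the promoters of many genes, which encode proteins that block viral replication, sense foreign nucleic acids, present antigen and dampen the signal. Interferon gamma uses a different receptor, and the gene sets overlap in part. In CD8+ T cells, interferons can act as a further signal beside the TCR and costimulation, and Gzmb encodes granzyme B, a protease of cytotoxic granules.

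The median GzmB+ Teff cell had 7827.5 UMIs (barcoded single transcripts) and 2310.5 detected genes, with 1.88% mitochondrial RNA. The cluster was thus as deep as Tn cells (median 7834 UMIs), and between transitory Teff (5545) and cycling cells (13959.5). Levels are CPM, the UMIs of a gene per 1000000 UMIs summed over the cells in question. Intervals at the 95% level are exact Poisson for CPM, exact conditional binomial for log2 ratios and Clopper-Pearson for shares, and they cover counting error only. The 7 other clusters are named here Tn, Tcm, transitory Teff, TIM-3+ Tex, GzmA+ Tex, TIGIT+ Teff and cycling cells. The Leiden number that most of the cluster carried was found on 681 of the 732 cells, and 205 cells with the same number were named transitory Teff.

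The defining T cell transcripts were present, with 1173 CPM of Cd3e and 618 CPM of Cd8a against 1303 and 652 CPM in all other cells. Of the 5 markers given for the label, the 4 interferon genes set the cluster apart. Ifit1, an RNA-binding inhibitor of viral translation, had 359, 375, 354 and 359 CPM in libraries 1 to 4, and at most 25.7 CPM in any other cluster over all libraries. These values were nearly level across libraries. Ifit3, its partner, had 420, 383, 464 and 383 CPM, against at most 30.4 CPM elsewhere. Isg15, a ubiquitin-like modifier of antiviral proteins, had 1150, 1118, 961 and 1073 CPM, against at most 106 CPM elsewhere. The ratio to all other cells was 28.2-fold for Ifit1 (26.3 to 30.2), 26.1-fold for Ifit3 (24.5 to 27.8) and 16.7-fold for Isg15 (16.1 to 17.2). Reads of Ifit3 and its near-identical neighbour Ifit3b cannot be separated with certainty.

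Cxcl10, the chemokine that calls CXCR3+ T cells, was the marker that varied most. It had 262, 295, 75.3 and 225 CPM in libraries 1 to 4, and at most 16.9 CPM in another cluster, so that library 3 stood below the rest of the cluster but above every other cluster. The fifth marker, Gzmb, did not separate the cluster in the same way. Gzmb had 594, 535, 587 and 608 CPM in libraries 1 to 4, or 584 CPM over all (566 to 603), beside 45.1 CPM in Tn, 119 in Tcm and 401 in transitory Teff, and 471, 530 and 557 CPM in TIM-3+ Tex, cycling cells and TIGIT+ Teff. Its ratio to all other cells was 1.73-fold (1.67 to 1.79), a log2 ratio of 0.79 that was 0.29 when the cluster was taken by Leiden number instead of by name.

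**Figure D1:**
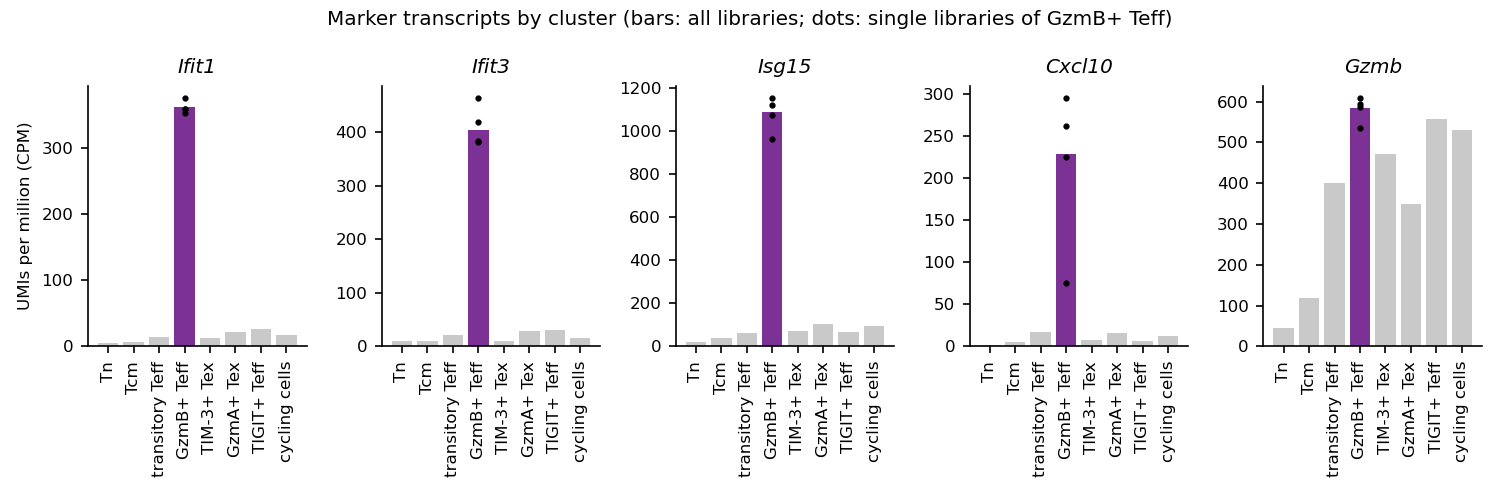
CPM of the 5 label markers (y axis, linear, each panel on its own scale) in the 8 clusters, with purple for GzmB+ Teff, grey for the other clusters and dots for the 4 libraries of GzmB+ Teff. The interferon markers stood far above every other cluster (Ifit1 at 362 CPM against at most 25.7), whereas Gzmb at 584 CPM lay near TIGIT+ Teff at 557.

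The promoters of the interferon markers were searched for the core letters of the interferon-stimulated response element. RefSeq promoter windows of GRCm38.p6 (250 bases before to 50 after the start of a gene) were read on both strands for GAAANNGAAA, whose reverse is TTTCNNTTTC, and matches may overlap. The stretches around the matches of 5 leading genes of the cluster are printed in the direction of the gene, with the matched letters in capitals, and all lie upstream of the annotated start. Ifit1 (ENSMUSG00000034459) and Ifit3 (ENSMUSG00000074896) lie on the plus strand of chromosome 19, and Isg15 (ENSMUSG00000035692), Cxcl10 (ENSMUSG00000034855) and Rsad2 (ENSMUSG00000020641) on the minus strand of chromosomes 4, 5 and 12.
Ifit1, chr19:34640765-34640833: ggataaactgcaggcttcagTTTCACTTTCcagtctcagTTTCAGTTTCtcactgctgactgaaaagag
Ifit3, chr19:34583353-34583436: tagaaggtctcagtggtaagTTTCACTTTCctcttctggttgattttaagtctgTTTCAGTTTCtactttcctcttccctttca
Isg15, chr4:156200855-156200916: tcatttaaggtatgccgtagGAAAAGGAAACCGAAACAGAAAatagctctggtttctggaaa
Cxcl10, chr5:92349073-92349122: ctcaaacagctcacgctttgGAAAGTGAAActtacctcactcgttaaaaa
Rsad2, chr12:26456543-26456592: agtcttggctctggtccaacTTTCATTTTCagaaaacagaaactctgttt
Ifit1 and Ifit3 each held 2 matches and Isg15 held 3 that overlap, and the match nearest to the start lay 76, 113 and 57 bases upstream. The single matches of Cxcl10 and Rsad2 lay 204 and 111 bases upstream. The window of Gzmb held none, which says only that these letters are not in it. Of 15 leading genes with a promoter in the table, 9 held a match, and Isg20, Oasl2, Cmpk2, Irf7, Oasl1 and Ifit2 held none. Among cytotoxic genes 3 of 14 held one (21.4%), and among inhibitory receptors and ligands 0 of 10. The element was found in 8 of the 15 core interferon genes with a promoter in the table, 17 of 29 antiviral effectors, 9 of 10 interferon GTPases, 5 of 16 MHC class I genes, 3 of 9 PARP and ubiquitin genes and 1 of 13 interferon signalling genes (7.69%), against 1079 of 27025 genes (3.99%) in all. A match describes the letters and is no evidence of binding.

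Single cells were scored by a core list of 20 interferon-stimulated genes (ISGs) such as Ifit1, Isg15, Mx1 and Usp18. The list summed to 5273 CPM in GzmB+ Teff, and to 5689, 5067, 5167 and 5166 CPM in libraries 1 to 4. The other clusters held between 448 CPM (Tn) and 813 CPM (GzmA+ Tex), so the cluster carried 8.96 times the level of all other cells together. After each cell was thinned at random to 2500 UMIs, the median GzmB+ Teff cell had 12 core ISG UMIs (10 to 12 in single libraries) and the median cell of each other cluster had 1. The range within the cluster was wide: the 5th percentile was 3 UMIs, the 95th was 38.5 and the highest cell had 70.

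The 588 cells with the highest thinned count, 5% of all cells, had at least 9 core ISG UMIs. Of these, 495 were GzmB+ Teff, or 84.2% (81.0% to 87.0%; libraries 73.5% to 90.5%), and 43 were cycling cells, 16 TIGIT+ Teff, 14 GzmA+ Tex, 12 Tcm, 5 transitory Teff and 3 TIM-3+ Tex. No Tn cell was among them, with an upper limit of 0.275% of Tn cells. Within GzmB+ Teff, 67.6% of cells were among the highest 5% and 237 cells were not. At least 1 of the 4 interferon markers was seen at this depth in 669 of 732 cells, or 91.4% (88.9% to 92.6% by library), against 9.09% of Tn cells and at most 23.5% in any other cluster. Gzmb was seen in 47.8% of the thinned GzmB+ Teff cells against 7.68% of Tn cells, and in 67.3% against 18.0% before thinning. The thinned share was higher in TIM-3+ Tex (51.7%), cycling cells (51.3%) and TIGIT+ Teff (52.8%), whose unthinned shares were 77.1%, 78.3% and 70.5%. Thus 63 cells of the cluster (8.61%) had no UMI of any of the 4 interferon markers at 2500 UMIs, and 326 cells (44.5%) had a UMI of Gzmb together with at least 1 of them.

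**Figure D2:**
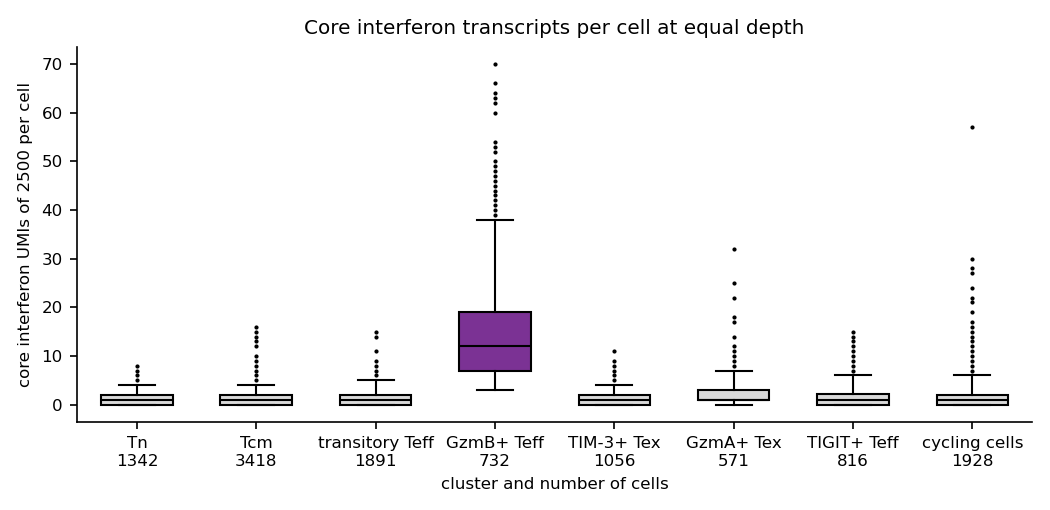
Core ISG UMIs per cell after thinning each cell to 2500 UMIs (y axis), by cluster with its number of cells (x axis); boxes are quartiles with the median, whiskers the 5th and 95th percentiles, and dots the count values above the 95th percentile at which cells were found. The median was 12 in GzmB+ Teff and 1 in each other cluster. The 95th percentiles of the other clusters were 4 to 7, above the 5th percentile of 3 in GzmB+ Teff, so the lower range overlapped. The highest counts outside GzmB+ Teff were 57 in cycling cells and 32 in GzmA+ Tex.

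Genes were called higher or lower than a reference when the log2 ratio of CPM, with 10 CPM added to both sides, was at least 1 in size over all libraries and had the same sign in each of the 4. Of 10224 genes with at least 200 UMIs, 104 (1.02%) were called higher in GzmB+ Teff than in all other cells, and 116 (1.13%) lower, which became 138 and 355 genes with 1 CPM added in place of 10. Of the 104 genes, 60 (57.7%) were in the interferon lists. Of the 116 lower genes, 112 had their highest level in cycling cells. The lowest ratios were those of Mki67, Pclaf and Cenpf. Mki67, a marker of dividing cells, had 22.1 CPM in GzmB+ Teff against 250.2 in all other cells and 833 in cycling cells. Against transitory Teff, 123 genes (1.20%) were higher and 17 (0.166%) lower.

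Antiviral effectors were the broadest group, with 25 of 29 tested genes called higher than in all other cells and a median log2 ratio of 2.12, against -0.12 over all genes tested. Rsad2, which makes the antiviral nucleotide ddhCTP, had 183, 139, 172 and 135 CPM in libraries 1 to 4 and 4.34 CPM in all other cells, a log2 ratio of 5.14 (4.98 to 5.31). Mx1, an interferon-induced gene of the GTPase family, had 236, 150.1, 168 and 163 CPM against 14.2 CPM. Library 1 was highest for both genes, and every library of the cluster lay far above the other cells. Bst2 (tetherin), which holds budding virions at the surface, had 705 CPM against 144 CPM. The oligoadenylate synthetases Oas1a and Oas3 and their relatives Oasl1 and Oasl2 had log2 ratios of 2.45, 2.77, 4.00 and 4.53. Ifi27l2a, an ISG that other cells also expressed, had 1671 CPM against 737 CPM. The genes not called were Adar, Ifitm1, Ifitm2 and Zc3hav1, with log2 ratios of 1.04, 0.76, -0.90 and 0.36, and the first and last were above the other cells in all 4 libraries.

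Sensors of foreign nucleic acid were called higher in 7 of 11. The cytosolic RNA sensors Ifih1 (MDA5) and Ddx58 (RIG-I) had 102 and 176 CPM against 16.5 and 64.1 CPM, and Zbp1, a sensor of Z-form nucleic acid, had 422 against 88.9 CPM. The adaptors on which sensors act were not called. Mavs had 12.6 CPM against 17.2 CPM and Tmem173 (STING) had 92.2 against 89.2 CPM. Tlr7, the endosomal RNA receptor, was low but had 11.8 CPM against 1.83 CPM.

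In the signalling chain itself, 3 of 13 genes were called, among them the transcription factors Stat2 and Irf7. Stat2 had 66.1 against 18.1 CPM, and Irf7, which amplifies type I interferon, had 472, 386, 439 and 478 CPM in libraries 1 to 4 against 69.7 CPM. Receptors and kinases were near the other cells. The log2 ratio was -0.11 for Ifnar1 (-0.27 to 0.05), -0.14 for Ifnar2 (-0.27 to -0.02), -0.26 for Ifngr1 (-0.34 to -0.19) and -0.10 for Jak1 (-0.16 to -0.05). Irf9 (1.01) and Irf1 (0.42) were higher without being called. Of the brakes on the pathway, Usp18, which blocks IFNAR2 and removes ISG15, had 330, 246, 250.1 and 316 CPM against 28.1 CPM, and Socs1, an inhibitor of JAK kinases, had 329, 283, 203 and 293 CPM against 124 CPM. Socs3 had a log2 ratio of 0.91, and the phosphatases Ptpn2 and Ptpn6 had -0.01 and -0.07. Of the interferon ligands listed, only Ifng was tested, with 121 CPM in GzmB+ Teff and 106 CPM in all other cells (log2 ratio 0.20). The listed type I and type III genes were not among the genes of the deposited counts, so their levels are not known.

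Interferon-inducible GTPases, which attack the membranes around intracellular pathogens and respond to interferon gamma as well as type I interferon, were called higher in 14 of 17. Igtp had 307 CPM against 67.0 CPM, Iigp1 75.2 against 5.36, Gbp2 169 against 41.7 and Ifi47 638 against 262. Reads of the close copies Tgtp1 and Tgtp2 may be split between them. Among genes of ADP-ribosylation and ubiquitin-like conjugation, 7 of 12 were higher, among them Herc6, the ISG15 ligase of the mouse (132 against 30.7 CPM), and the partners Parp9 and Dtx3l.

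MHC class I genes differed less. None of 18 was called higher, although 15 were above the other cells in all 4 libraries. The median log2 ratio was 0.31, against -0.12 over all genes tested. How many of all genes tested were above in all 4 libraries was not counted. Tapbp, the tapasin of the peptide-loading complex, had the largest at 0.83 (0.77 to 0.89), followed by H2-T22 at 0.76 and Psmb10 at 0.71, whereas the classical H2-K1 and H2-D1 had 0.18 and 0.13. H2-K1 had 4203 CPM in GzmB+ Teff and was also abundant in TIGIT+ Teff (4733 CPM) and Tcm (3895 CPM). The H2-Q and H2-T copies share sequence, and their reads may be split.

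Among 6 chemokines Cxcl10 was the only one called. Cxcl9, a ligand of the same receptor that depends on interferon gamma, had 0.613 CPM, and Ccl5 and Ccl3 had log2 ratios of 0.05 and -0.42. None of 15 cytotoxic genes was called. Prf1 (perforin) had 93.6 CPM against 114 CPM, Nkg7 had 3134 against 3357 CPM, and Gzma had 661, 339, 165 and 275 CPM in libraries 1 to 4 against 497 CPM, so Gzma spread far more between libraries than Gzmb did. Of 11 inhibitory receptors and ligands only Cd274, which encodes PD-L1 and is induced by interferon, was called, with 57.0, 43.2, 56.5 and 38.5 CPM against 12.8 CPM. Pdcd1, Tox and Havcr2 were below the other cells, with log2 ratios of -0.49, -0.45 and -0.75. Cd69, an early activation receptor that type I interferon also induces, had 381, 329, 328 and 318 CPM against 183 CPM, a log2 ratio of 0.88.

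**Figure D3:**
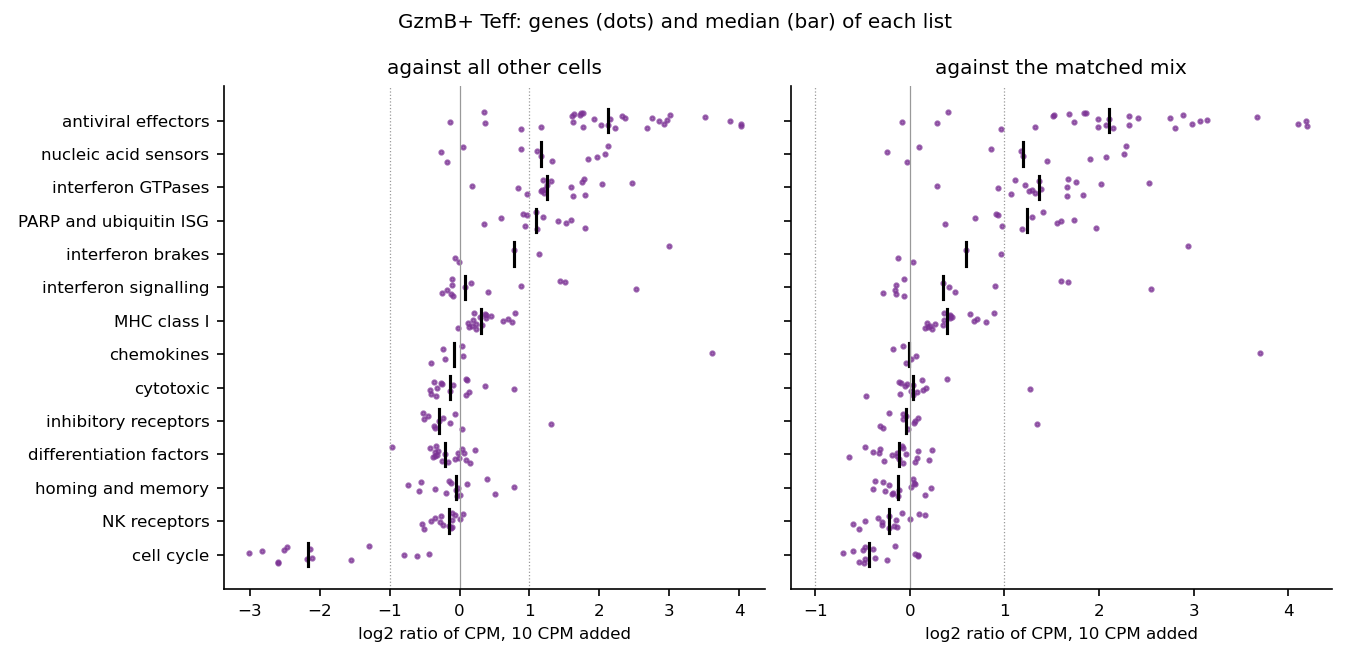
Log2 ratio of CPM with 10 CPM added to both sides (x axis) for each tested gene (dots) of 14 lists (y axis) and the list median (black bar), against all other cells (left) and against a mix of other clusters matched to the cells of GzmB+ Teff (right); dotted lines mark a 2-fold change. Antiviral effectors had a median of 2.12 on the left, cell cycle genes -2.17, and the cell cycle genes lay near -0.43 in the matched comparison.

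Against transitory Teff, which shared a Leiden number with most of GzmB+ Teff, 2 of 15 homing and memory genes were called higher and 2 lower, with a median log2 ratio of -0.10 against -0.08 over all genes tested. Ccr7, a chemokine receptor for entry into lymph nodes, had 63.8 CPM in GzmB+ Teff and 25.1 CPM in transitory Teff, and its highest level was in Tn. Cx3cr1 and the integrin Itga4 were lower than in transitory Teff, at 17.5 and 265 CPM against 60.5 and 554 CPM. Tigit had 141, 175, 99.4 and 176 CPM in libraries 1 to 4 against 338 CPM, a log2 ratio of -1.12 (-1.22 to -1.02). Tigit in GzmB+ Teff was below transitory Teff in every library. Id3 had 29.4 against 88.9 CPM. Of 15 NK receptor genes 6 were called higher, among them Klra7 (75.9 against 19.6 CPM) and Klrb1c (60.9 against 15.3 CPM), and 5 of the 6, all but Tyrobp, were highest in Tcm. Of 19 differentiation factors none was called higher and 1, Id3, was lower. Summed over its cells, GzmB+ Teff was thus above transitory Teff in Ccr7 and in some NK receptor genes that were highest in Tcm. Such sums do not show whether single cells held these transcripts together.

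To ask which cells these were, each GzmB+ Teff cell was compared with the profiles of the 7 other clusters over 3923 genes, leaving out the interferon lists, Gzmb, TCR variable genes and 87 genes at least 1.5 times higher in GzmB+ Teff than in every other cluster. Profiles came from the 3 other libraries and cells were thinned to 2500 UMIs. The closest profile was Tcm for 232 cells (31.7%, 28.3% to 35.2%), Tn for 180 (24.6%, 21.5% to 27.9%), transitory Teff for 171 (23.4%, 20.3% to 26.6%) and TIM-3+ Tex for 86 (11.7%, 9.51% to 14.3%). The remaining 63 cells were closest to GzmA+ Tex (27), TIGIT+ Teff (24) or cycling cells (12). By library, 18.8% to 34.3% of cells were closest to Tn, 24.1% to 34.6% to Tcm and 19.4% to 26.3% to transitory Teff, so each kind was found in every library. The same procedure returned 87.5% of Tn cells, 89.9% of Tcm cells and 74.4% of TIM-3+ Tex cells to their own cluster, but only 49.8% of transitory Teff cells and 32.0% of GzmA+ Tex cells, so assignment among effector profiles was less certain.

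The TCR, sequenced from a companion library, was not used in this comparison. Cells of 1 library that matched in the gene segments and CDR3 bases of both chains formed a clone, and clones of at least 2 cells were called expanded. Expanded clones held 3 of 155 Tn-closest cells with a TCR (1.94%, 0.401% to 5.55%), 22 of 169 Tcm-closest cells (13.0%, 8.34% to 19.0%), 60 of 107 transitory Teff-closest cells (56.1%, 46.1% to 65.7%) and 44 of 51 TIM-3+ Tex-closest cells (86.3%, 73.7% to 94.3%). The clusters of those names had 2.96%, 8.07%, 74.5% and 92.7%. The order of the 4 groups was that of the clusters themselves. The Tn-closest share was 0.870% without library 2 and 3.0% without library 4, and the Tcm-closest share was 20.7% without cells that held RNA of other cell types or more than 1 TRB chain. The TIM-3+ Tex-closest share (62.5% to 92.3% by library) did not overlap the Tcm-closest share (4.76% to 16.7%).

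**Figure D4:**
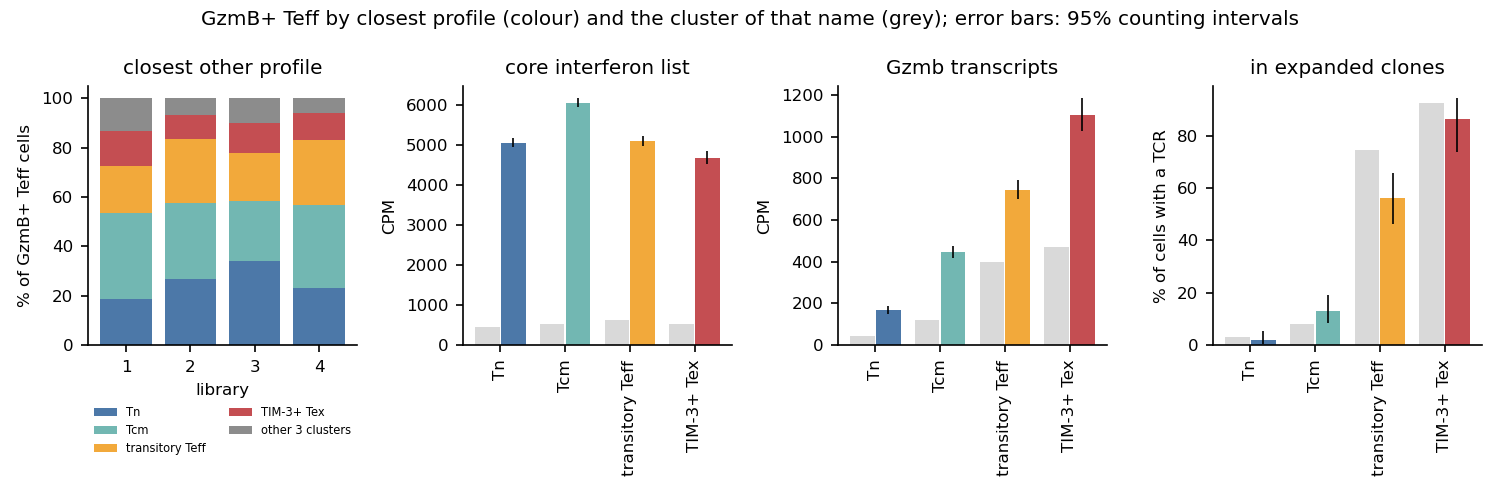
GzmB+ Teff cells by closest profile: share of the cluster's cells in each library (left), then core ISG CPM, Gzmb CPM and the share of cells in expanded clones, with the group of GzmB+ Teff in colour and the whole cluster of that name in grey; error bars are 95% counting intervals. Core ISG levels ran from 4685 to 6067 CPM over the 4 groups, while Gzmb ran from 168 CPM in Tn-closest to 1103 CPM in TIM-3+ Tex-closest cells and the expanded share from 1.94% to 86.3%.

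The interferon transcripts were high in all 4 kinds of cell, which follows in part from taking only cells of a cluster marked by them. The core list had 5070 CPM in Tn-closest cells, 6067 in Tcm-closest, 5107 in transitory Teff-closest and 4685 in TIM-3+ Tex-closest cells, which was 11.3, 11.6, 8.15 and 8.70 times the level in the cluster of that name. Gzmb differed more among them, by the kind of cell, and was above the matching cluster in each. It is also a marker given for the cluster, so this excess may follow in part from how the cluster was drawn. Gzmb had 168 CPM in Tn-closest cells against 45.1 CPM in Tn, 447 against 119 in Tcm, 745 against 401 in transitory Teff and 1103 against 471 in TIM-3+ Tex. The log2 ratios were 1.90 (1.68 to 2.11), 1.91 (1.80 to 2.02), 0.90 (0.80 to 0.99) and 1.23 (1.12 to 1.34), each positive in all 4 libraries. In Tn-closest cells Gzmb was 218, 55.3, 60.3 and 285 CPM in libraries 1 to 4, so its level there was highest in libraries 1 and 4.

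When each GzmB+ Teff library was set beside the other clusters of that library mixed in the proportions of the closest profiles, 105 genes (1.03%) were called higher and 1 (0.00978%), the macrophage gene Lyz2, lower. No cell cycle gene and, apart from Cd274, no inhibitory receptor or ligand was called against this mix. Gzmb became the only cytotoxic gene of 15 to be called higher, at 584 CPM against 237 CPM in the mix (log2 ratio 1.27 with 10 CPM added), while Prf1, Nkg7 and Gzma had ratios of -0.03, 0.03 and 0.14 on the same scale. The closest profiles that set the mix were found without Gzmb, but with Prf1, Nkg7, Gzma and cell cycle genes such as Mki67. The mix was thus matched on such genes and not on Gzmb. Its closeness for them, and the small number of lower genes, were favoured in advance. The excess of Gzmb, a marker given for the cluster, may follow in part from how the cluster was drawn. All 18 MHC class I genes were above the mix in all 4 libraries, a count that was not made over all genes tested. Their median was 0.39 against -0.06 over all genes tested. Of the 104 genes called against all other cells, 96 were also called against transitory Teff and the mix.

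**Figure D5:**
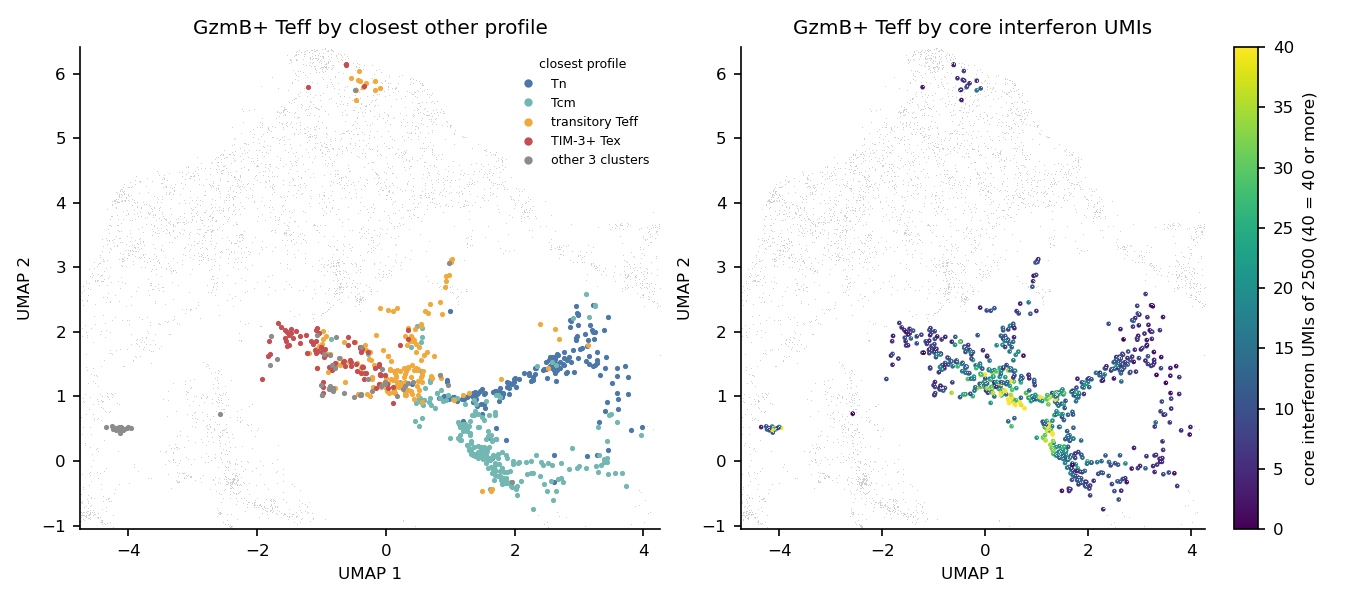
The authors' UMAP map (axes without unit) around GzmB+ Teff, with other cells in grey; GzmB+ Teff cells are coloured by closest profile (left) and by core ISG UMIs of 2500 (right, values of 40 or more share the last colour). Most Tn-closest and Tcm-closest cells lay on separate arms to the right, most transitory Teff-closest and TIM-3+ Tex-closest cells to the left, and cells with high core ISG counts mainly where these arms met.

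Cxcl10 was carried by few cells. It was found in 210 of 732 cells, and the 25 highest cells held at least 50% of its 1489 UMIs, whereas Isg15 was found in 693 cells and 146 cells were needed for 50%. Tcm-closest cells had 415 CPM (386 to 444), against 124 in Tn-closest, 158 in transitory Teff-closest and 145 in TIM-3+ Tex-closest cells, and held 53.7% of all Cxcl10 UMIs of the cluster. By library the Tcm-closest cells had 365, 609, 266 and 391 CPM, above the other groups in each library. The low Cxcl10 of library 3 was seen in each of the 4 kinds of cell, since the Tcm-closest cells were lowest there, the Tn-closest and transitory Teff-closest cells had 16.5 and 39.9 CPM there and no UMI was seen in the 13 TIM-3+ Tex-closest cells.

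Within each library the cells were also ordered by the thinned core ISG count, and the 243 highest were compared with the 243 lowest over the 4 libraries. The median count was 24 against 6. Several genes outside the score followed it and were higher in the upper cells of all 4 libraries. Cxcl10 had 543 against 73.6 CPM, Gbp2 334 against 79.8, Socs1 479 against 189, Cd274 83.2 against 28.4 and Cd69 489 against 262. Other genes outside the score did not: Cxcr4, Tnfrsf9, Id3 and Ccr7 were lower in the upper cells of all 4 libraries. Their log2 ratios were -1.65, -1.13, -1.03 and -0.65. The log2 ratio of Cxcl10 was 2.88 and was 3.70 without library 4. Gzmb had 777 against 472 CPM, a log2 ratio of 0.72 (0.61 to 0.83), higher in the upper cells of all 4 libraries (0.29 to 1.21). Prf1 went the other way over all libraries, with 69.3 against 111 CPM, but was higher in the upper cells of 1 library. The upper cells also included more Tcm-closest cells (37.9% against 25.1%) and had fewer UMIs per cell (median 6720 against 8914), and the part of these in the gene differences was not tested.

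A TCR was called in 502 of the 732 cells (68.6%). They formed 452 clonotypes, of which 361 were found in a single cell of their library and 91 were expanded. Of the 91, only 1 was confined to GzmB+ Teff, and the median expanded clonotype had 80% of its cells in other clusters. By library, 25.5%, 27.3%, 27.2% and 30.4% of the cells with a TCR were in expanded clones, a narrow range between Tcm (8.07% over all) and transitory Teff (74.5%). Expanded clonotypes were shared most often with transitory Teff (72, or 79.1% of the 91), then with cycling cells (47), TIM-3+ Tex (35), GzmA+ Tex (27), TIGIT+ Teff (26), Tcm (14) and Tn (9). Those of transitory Teff-closest cells had a cell in the transitory Teff cluster in 45 of 46 cases, and those of TIM-3+ Tex-closest cells had one in TIM-3+ Tex in 26 of 30, but also in transitory Teff in 29 and in cycling cells in 23 of the 30. The 3 expanded clonotypes of Tn-closest cells had a cell among cycling cells in all 3 cases and in Tn in 1. Those of Tcm-closest cells had one in the Tcm cluster in 11 of 21. A large clone with cells in several clusters counts for each of them.

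The same clones thus held cells with high and with low levels of the interferon transcripts. The TCR shows here that clones were spread over clusters. The difference in these transcripts between the clusters was itself part of how they were drawn, and this may hold for Gzmb, also a marker of the label. Among clones with 1 TRB chain, the one with most GzmB+ Teff cells was in library 4 and had 133 cells, of which 8 were GzmB+ Teff, 67 transitory Teff, 28 cycling cells and 22 TIM-3+ Tex, and its TRB chain used TRBV16. A clone of library 1 had 170 cells with 4 in GzmB+ Teff and used TRBV1, and one of library 2 had 110 cells with 4 in GzmB+ Teff and used TRBV17. The bases of their TRB CDR3 are printed to show the TRB chain of each clone, and those of libraries 4 and 1 were also found in another clone with other TRA genes.
Library 4, TRBV16: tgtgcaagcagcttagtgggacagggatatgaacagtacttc
Library 1, TRBV1: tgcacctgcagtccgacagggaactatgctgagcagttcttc
Library 2, TRBV17: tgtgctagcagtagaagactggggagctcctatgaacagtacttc
The core list had 5534, 2708 and 7103 CPM in the GzmB+ Teff cells of these clones and 404, 517 and 393 CPM in their other cells. Over the 90 clonotypes with cells both inside and outside GzmB+ Teff, the core list had 6685 CPM in the 139 inside cells and 569 CPM in the 1694 others, a log2 ratio of 3.55 (3.50 to 3.61; libraries 2.89 to 3.87). These sums were not paired or weighted by clone, so large clones count for more. The part of the mix of clones in the differences between inside and outside cells was not tested. Gzmb had 1072 against 520 CPM, higher in all 4 libraries, and Cd69 had 302 against 128 CPM, also in all 4. Prf1 (184 against 164 CPM), Gzma (506 against 513 CPM), Tox (427 against 439 CPM) and Lag3 (500 against 488 CPM) had intervals of the log2 ratio that included 0. Other genes differed: Ccl3 was lower in the inside cells of all 4 libraries (640 against 1134 CPM, log2 ratio -0.82). Tigit (-0.36, -0.54 to -0.18) and Pdcd1 (-0.23, -0.41 to -0.05) were lower over all libraries but higher in 1. Ccl5 (0.34) and Il7r (1.45) were higher over all libraries, in 3 and 2 of the 4. Against only the 708 transitory Teff cells of 72 shared clonotypes, the 120 GzmB+ Teff cells had 1186 CPM of Gzmb against 403 CPM, a log2 ratio of 1.56 (1.43 to 1.68; libraries 1.05 to 1.92). Against the 346 TIM-3+ Tex cells of 35 shared clonotypes, 75 GzmB+ Teff cells had 1066 CPM of Gzmb against 545 CPM, a log2 ratio of 0.97 that was positive in 3 of 4 libraries (-0.37 to 2.13). Gzmb was not alone in the comparison with transitory Teff: Prf1 had 207 against 128 CPM (0.69; libraries 0.01 to 1.71) and Gzma 534 against 266 CPM (log2 ratios of -0.81 to 3.31 by library).

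At least 1 UMI of the macrophage, plasma and B cell, neutrophil or erythroid lists was found in 472 of the 732 cells (64.5%), against 63.0% of Tn cells, so leaving out such cells removes most of the cluster. The plasma and B cell list summed to 114 CPM (143 in Tn), of which Ighm made up 85.7 CPM, and Cd79a was at 0 UMIs. The 11 macrophage genes of the list summed to 41.6 CPM in GzmB+ Teff (25.1 to 49.5 by library), against 8.53 in Tn, 33.8 in transitory Teff and 1591 in GzmA+ Tex, and none of the 8 tested genes was called higher. The macrophage markers Adgre1 and Cd14 were at 0 UMIs in the cluster. Cxcl10, which macrophages also make, had 221 CPM (208 to 234) in the 604 cells with no macrophage UMI and 254 CPM (228 to 281) in the 128 cells with one. Of the cells with a TCR, 12.7% had more than 1 TRB chain, against 5.32% in Tn and 14.6% in cycling cells, and 9 cells shared a barcode with a cell of another library. The share with more than 1 TRB chain was 10.3% in Tn-closest, 14.2% in Tcm-closest, 12.1% in transitory Teff-closest and 13.7% in TIM-3+ Tex-closest cells. The clusters of those names had 5.32%, 6.67%, 7.62% and 13.9%. A macrophage UMI was found in 10.6%, 15.5%, 18.1% and 22.1% of these groups, against 4.84%, 6.76%, 13.4% and 19.3% of those clusters. No doublet caller was run. The part of doublets in these values, and in Gzmb by closest profile, was not tested.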

How the data were processed

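CD8+ T cells of 4 groups were captured with the 10x 5' kit and sequenced for RNA and TCR. The deposited table holds raw UMI counts of 17561 genes, made by the authors with Cell Ranger 7.00 on mm10 and downsampled across libraries. The authors' limits were 2500 and 25000 UMIs and 15% mitochondrial RNA per cell, with Cd3e/g and Cd8a detected, and no doublet removal is named. The deposited mitochondrial share is a fraction, and the authors' UMAP coordinates are a score without unit. The names and Leiden numbers of clusters came from Monocle3, and TCR chains were reconstructed with cellranger vdj and analysed by the authors with scRepertoire. GENCODE M21 (GRCm38) gave symbols for 17534 genes. Depth was 15556967 to 38440687 UMIs per library.

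UMIs were summed per cluster and library and scaled to CPM. Ratios across clusters, list counts, thinning (seed 11), closest profiles and clone sharing were computed with scipy 1.17.1, pandas 2.3.3 and numpy 2.4.6, and drawn with matplotlib 3.10.9, under Python 3.11.15. No test was possible with 1 library per group. Named genes are list members, the 20 highest and 10 lowest against all other cells, and 10 each way against transitory Teff, all by the ratio with 10 CPM added and at least 50 CPM. Of 327 list genes, 314 were in the table. The members and lists were chosen with earlier results of these data known. The closest profiles, the matched mix and the same-clone comparison were chosen after seeing the data. Ratios were tested on simulated data with 200 changed genes of 10224, where 95.7% of intervals held the true value. Alternatives changed depth, reference weights, cells, cluster labels, the added CPM, the filter and the clonotype definition, and left out each library. Some genes of the lists are not reported here.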

Additional observations from a re-analysis of the deposited data

How the results depend on the processing

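No result was reversed by any alternative. With the cluster taken by Leiden number, its share was 7.66% of cells, and the log2 ratios to all other cells were 2.76 for the core list and 0.29 for Gzmb. With cells thinned to 2500 UMIs the ratios were 3.34 for the core list, 4.95 for Cxcl10 and 0.95 for Gzmb, with equal weight of the other clusters 3.11 for the core list and 0.73 for Gzmb, and without cells holding RNA of other cell types or more than 1 TRB chain 3.48, 4.76 and 0.93. That last setting gave 20.7% expanded among Tcm-closest cells. With 1 CPM added, 355 genes were lower. GzmB+ Teff made up 93.6% of the highest 2% of cells by core ISG count and 56.4% of the highest 10%. Splitting all cells at the middle in place of the 243 extreme cells gave 0.56 for Gzmb and 2.48 for Cxcl10. Leaving out each library gave ranges of 5.80% to 7.20% for the share, 3.12 to 3.21 for the core list, 4.39 to 4.90 for Cxcl10 and 0.63 to 0.96 for Gzmb against all other cells, 79.1% to 87.5% for the highest 5% of cells, 0.61 to 0.84 for Gzmb and 2.61 to 3.70 for Cxcl10 between upper and lower cells, 3.21 to 3.28 and 1.19 to 1.40 for the core list and Gzmb against the matched mix, and 3.26 to 3.65 and 1.42 to 1.67 against transitory Teff of the same clones. The closest profile was the same in 94.7% of cells without thinning. For single genes and other values, 100 of 186 alternatives stayed within the counting interval and 86 moved. The reasons for these shifts were not tested. No analysis paired across treatment groups was possible because each group was 1 library with no number shared between groups. The same-clone comparison summed cells over clones and was not paired by clone. Clusters were compared within the same 4 libraries, and their values by library were given without a test, since the clusters were drawn on these values. With 1 library per group, intervals cover counting error and not the spread between mice.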

Other observations

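Outside the lists, 38 further genes with at least 50 CPM were called higher in GzmB+ Teff than in all other cells. The genes named here were picked after their values were seen. Several belong to families of interferon-inducible nuclear proteins: Ifi208, Ifi209 and Ifi213 of the PYHIN family had 306, 349 and 219.8 CPM against 82.0, 98.1 and 52.5 CPM, and Phf11b had 289.6 CPM against 82.1 CPM. These families hold close copies, among which reads cannot be separated with certainty. Daxx, a histone H3.3 chaperone, had 187 CPM against 43.6 CPM, and Pml, the scaffold of nuclear bodies with which DAXX associates, had 125 CPM against 38.1 CPM. Rnf213, a large ubiquitin ligase, had 283 CPM against 75.0 CPM.

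Ly6a (Sca-1), a surface protein, had 1007, 952, 1188 and 727 CPM in libraries 1 to 4 against 269 CPM in all other cells, and it was higher in the cells of each closest profile than in the cluster of that name: 1067 against 203 CPM for Tn, 535 against 72.8 for Tcm, 1253 against 433 for transitory Teff and 904 against 227 for TIM-3+ Tex. Ly6c2 had 2056 CPM against 1011 CPM in all other cells but 1731 CPM in the highest other cluster, and was not called against the matched mix (log2 ratio 0.73). Jaml, an adhesion receptor, had 259 CPM against 67.8 CPM. Gadd45g, a stress response gene, had 137, 91.0, 43.9 and 133 CPM against 27.4 CPM, with its lowest level in library 3, the library that was also lowest for Cxcl10.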
